A study of Mus musculus with 4 samples.

Results

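Cardiac jelly is the hyaluronan-rich extracellular matrix between the endocardium and the myocardium of the embryonic heart. The 8 genes described here make, organise, bind or break down this matrix. They were picked by symbol from the 32285 genes of the count matrices, and all 8 were found. *Has2* encodes the hyaluronan synthase of the heart, *Vcan* the proteoglycan versican and *Hapln1* the link protein that fastens versican to hyaluronan. *Adamts1*, *Adamts5* and *Adamts9* encode secreted metalloproteases that cleave versican. *Cd44* encodes a cell surface receptor for hyaluronan and *Hyal2* a membrane-anchored hyaluronidase.

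Single-cell RNA sequencing was performed on ventricles of mouse embryos at E14.5, on a C57BL/6 background, from 2 control libraries (Tie2Cre;*Ets1* fl/+) and 2 *Ets1* eKO libraries (Tie2Cre;*Ets1* fl/fl). Each library pooled 3 ventricles of untreated embryos of both sexes, which had not been genotyped for sex. Both groups carried Tie2Cre and at least 1 floxed allele of *Ets1*, so the controls could lose 1 copy wherever Cre acted. Tie2Cre is active in all endothelium, and by background knowledge also in the cushion mesenchyme that arises from the endocardium and in blood lineages, so loss of *Ets1* is not limited to the endocardium. The main question was how the 8 genes differed between *Ets1* eKO and control within a cell class. The p-values of that comparison measure the spread between libraries of pooled embryos. Tests of levels between classes and of class by condition took library as a block. Their p-values measure the spread that remains among class sums of the same 4 libraries, not the spread between pools of embryos.

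By background knowledge, hyaluronan is extruded at the plasma membrane by *Has2*, and the chains bind versican, with link protein holding the aggregate together. In the early ventricle this gel spaces the endocardium from the myocardium while trabeculae form, and in the cushions it is the matrix that endocardium-derived mesenchyme invades. Versican-cleaving ADAMTS proteases then remove the jelly, and its clearance closes the phase of trabecular growth. ETS family factors, among them *Ets1*, recognise a core of GGAA in DNA.

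The genes lie on GRCm38 as follows. *Has2* is at chr15:56665627-56694539 on the minus strand, *Cd44* at chr2:102811141-102901665 on the minus strand, *Hyal2* at chr9:107567945-107572779 on the plus strand and *Adamts9* at chr6:92772699-92943492 on the minus strand. The others form neighbouring pairs. *Vcan* (chr13:89655312-89742509, minus strand) and *Hapln1* (chr13:89539796-89611652, plus strand) face each other with their 3′ ends across a gap of 43.7 kb. *Adamts1* (chr16:85793827-85803113) and *Adamts5* (chr16:85856173-85901828) lie on the minus strand 53.1 kb apart.

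Promoter sequence of 6 of the 8 genes was taken from RefSeq on GRCm38.p6, as 250 bases before and 50 after the start of the gene in RefSeq. For *Hapln1* and *Hyal2* that start lies downstream of the GENCODE start given above, so their windows fall inside the GENCODE genes. Promoters of 3 genes are printed because their genes carry the differences described below: *Adamts1*, which was lower in *Ets1* eKO cushion mesenchyme, and *Vcan* and *Hapln1*, for which a class by condition term between mural endocardium and 1 other endothelial class passed the threshold, in each case a call that was lost when 1 library was left out. Each reads 5′ to 3′ on the strand of its gene, and capitals mark GGAA or its reverse complement TTCC, without overlaps between them.

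Adamts1, chr16:85803064-85803363, minus strand: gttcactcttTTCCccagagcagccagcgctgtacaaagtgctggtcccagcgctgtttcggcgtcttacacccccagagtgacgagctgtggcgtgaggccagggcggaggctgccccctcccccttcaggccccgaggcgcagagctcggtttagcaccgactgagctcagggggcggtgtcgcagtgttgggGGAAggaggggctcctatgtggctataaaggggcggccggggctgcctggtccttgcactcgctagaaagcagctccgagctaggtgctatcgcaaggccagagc
Vcan, chr13:89742463-89742762, minus strand: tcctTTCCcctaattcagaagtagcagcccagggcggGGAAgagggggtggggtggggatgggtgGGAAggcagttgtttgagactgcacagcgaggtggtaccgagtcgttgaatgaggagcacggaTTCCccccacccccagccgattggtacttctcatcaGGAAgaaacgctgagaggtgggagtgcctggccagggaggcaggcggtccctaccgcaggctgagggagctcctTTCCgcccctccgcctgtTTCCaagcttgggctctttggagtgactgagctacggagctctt
Hapln1, chr13:89540386-89540685, plus strand: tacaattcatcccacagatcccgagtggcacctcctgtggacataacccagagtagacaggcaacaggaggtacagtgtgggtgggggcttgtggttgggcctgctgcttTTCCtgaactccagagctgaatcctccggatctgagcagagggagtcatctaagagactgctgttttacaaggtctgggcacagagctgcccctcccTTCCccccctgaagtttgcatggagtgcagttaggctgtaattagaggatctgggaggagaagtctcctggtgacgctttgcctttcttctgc

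The *Vcan* promoter held 7 matches to GGAA on either strand, *Hapln1* 2 and *Adamts1* 2, and among the promoters not printed *Cd44* held 8, *Hyal2* 4 and *Adamts9* 1. This core is short, and 96.0% of the 32851 promoters of the same length held it, with a median of 3 matches. The longer motifs CCGGAA (in 14.9% of all promoters) and CCGGAAGT (in 3.89%), searched on both strands, were in none of the 6. A match describes the letters of the window and is not a binding site.

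The 4 libraries held 7949 to 14951 barcodes and 76931208 to 124140739 UMIs (unique molecular identifiers, each standing for 1 captured transcript), and 6796 to 12302 cells per library were kept. *Ets1* eKO replicate 2 was the shallowest, with a median of 5318 UMIs per cell against 8277 to 8726 in the others. Pairs of libraries shared 19 to 47 barcodes. Cells were assigned to 8 classes by marker lists that contain none of the 8 genes. Each class stands for cells like the named type (mural endocardium-like, cushion mesenchyme-like and so on), and the ending is left out below. The classes held 18780 cardiomyocytes, 3257 cushion mesenchyme, 3199 mural endocardium, 2510 fibroblast, 1571 coronary endothelium, 1091 valve endocardium, 757 macrophage and 684 epicardium cells. The same cells were also clustered, and the clusters were named with the same marker lists, so agreement with the gate is not an independent check. Clustering put 97.5% of gated cushion mesenchyme and 98.2% of gated mural endocardium cells in the same class. The share was 68.8% for valve endocardium, 81.9% for fibroblasts, 85.7% for cardiomyocytes and 89.1% for coronary endothelium. Of the gated fibroblasts 360 clustered with cushion mesenchyme, as did 1222 cells that the gate left in no class. Levels are given in CPM, which scales a gene's UMIs to the total of the class within 1 library. A gene is said to pass the threshold where the quasi-likelihood test of edgeR gave it a p of 0.05 or lower after Benjamini-Hochberg adjustment over all genes tested.

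*Ets1*, the transcription factor deleted in this model, was at 279 and 262 CPM in control and 122 and 99.2 CPM in *Ets1* eKO mural endocardium. It was at 82.8 and 76.5 CPM in control and 42.8 and 36.9 CPM in *Ets1* eKO cushion mesenchyme. *Ets1* fell by 1.25 ± 0.14 on the log2 scale (SE, n = 2 libraries per group, adjusted p = 0.00131) in mural endocardium, by 1.31 ± 0.15 (adjusted p = 0.00401) in valve endocardium and by 1.11 ± 0.18 (adjusted p = 0.00746) in coronary endothelium. In cushion mesenchyme it fell by 0.91 ± 0.14 (adjusted p = 0.0221), while cells classed by cluster gave -0.75 (adjusted p = 0.0766). In fibroblasts its level was 112 and 97.4 CPM against 70.7 and 69.1 CPM, a log2 difference of -0.50 ± 0.14 that missed the threshold (adjusted p = 0.499). In cardiomyocytes it was at 6.65 and 6.68 CPM against 9.03 and 8.96 CPM (log2 difference 0.55 ± 0.12, adjusted p = 0.414). UMI counts carry no position within a gene, so the remaining counts do not tell an intact transcript from one that lacks floxed exons.

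The synthase *Has2* was a gene of the cushion mesenchyme. Its level there was 213 and 173 CPM in control and 222 and 138 CPM in *Ets1* eKO. Fibroblasts came next with 53.4 and 60.2 CPM in control and 37.8 and 24.99 CPM in *Ets1* eKO. Valve endocardium held 11.6 and 19.9 against 14.95 and 5.76 CPM. Every cushion library thus lay above every fibroblast library, and cushion mesenchyme exceeded fibroblasts by 1.97 ± 0.14 on the log2 scale (adjusted p = 1.66e-12). Coronary endothelium, epicardium and cardiomyocytes were at 1.06 CPM or below in every library, and their order below the valve endocardium, with mural endocardium and macrophages, showed no step past the threshold. Macrophages held no *Has2* UMI, and a count of 0 over the 4 libraries allows up to 0.764 CPM. Cushion mesenchyme supplied a mean of 59.2% of all *Has2* UMIs, fibroblasts 14.3% and cells left in no class 22.0%.

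*Vcan*, the proteoglycan that fills the jelly, was also highest in cushion mesenchyme, with 1649 and 1703 CPM in control and 1744 and 1763 CPM in *Ets1* eKO. Valve endocardium held 582 and 601 against 608 and 402 CPM. Fibroblasts held 363 and 352 against 292 and 306 CPM. Cardiomyocytes held 207 and 266 against 219 and 202 CPM, and mural endocardium 84.4 and 62.8 against 124 and 93.9 CPM. Cushion mesenchyme exceeded valve endocardium by 1.56 ± 0.13 on the log2 scale (adjusted p = 2.47e-12), and each further step down to coronary endothelium passed the threshold except that from fibroblasts to cardiomyocytes. Cardiomyocytes, the most numerous cells, supplied a mean of 41.5% of *Vcan* UMIs and cushion mesenchyme 31.7%, but in control replicate 2 cushion mesenchyme supplied more (41.2 against 35.1%). *Hapln1*, the link protein, had the opposite order of the leading classes. It was at 583 and 506 CPM in control and 422 and 376 CPM in *Ets1* eKO valve endocardium, and at 190 and 170 against 221 and 306 CPM in cushion mesenchyme. Valve endocardium exceeded cushion mesenchyme by 1.19 ± 0.18 (log2, adjusted p = 9.33e-07), and all other classes stayed at 40.1 CPM or below in every library.

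The 3 proteases differed in where they were highest. *Adamts1* led in mural endocardium, with 244 and 195 CPM in control and 168 and 159 CPM in *Ets1* eKO. It exceeded coronary endothelium there by 0.63 ± 0.11 on the log2 scale (adjusted p = 4.28e-06). *Adamts9* led in coronary endothelium, with 211 and 177 against 167 and 138 CPM, and exceeded mural endocardium (153 and 200 against 113 and 122 CPM) by 0.42 ± 0.13 (log2, adjusted p = 0.00605). It was low in cushion mesenchyme, at 6.29 and 7.62 against 5.15 and 2.33 CPM. *Adamts5* had no single leading class. Valve endocardium (63.4 to 80.2 CPM over the 4 libraries), fibroblasts (48.1 to 87.0 CPM), mural endocardium (53.6 to 67.2 CPM) and epicardium (32.7 to 84.4 CPM) followed each other without a step past the threshold, and the first step, from valve endocardium to fibroblasts, was 0.22 ± 0.17 (log2, adjusted p = 0.296). Mural endocardium and coronary endothelium thus held the highest *Adamts1* and *Adamts9* levels, while *Adamts9* in valve endocardium (42.7 to 53.2 CPM) overlapped cardiomyocytes (41.5 to 61.7 CPM) in CPM and was lower in the fit, where cardiomyocytes exceeded it by 0.58 ± 0.17 (log2, adjusted p = 0.00318). Of the UMIs, 23.7% for *Adamts1* and 49.9% for *Adamts9* came from the many cardiomyocytes.

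*Cd44*, the hyaluronan receptor, was highest in macrophages, with 667 and 466 CPM in control and 711 and 500 CPM in *Ets1* eKO. Cushion mesenchyme followed with 95.2 and 95.9 against 125 and 108 CPM, lower by 2.83 ± 0.13 on the log2 scale (adjusted p = 6.06e-19). *Hyal2*, the hyaluronidase, was highest in the endocardium, at 87.0 to 106 CPM in valve and 66.9 to 97.1 CPM in mural endocardium, and these did not differ past the threshold (log2 difference 0.14 ± 0.079, adjusted p = 0.201). Over the 8 genes, 31 of 56 tests between classes that follow each other in a gene's order of mean CPM passed the threshold. Of these 30 went with the order and 1 against it, *Hyal2* in fibroblasts and cardiomyocytes, whose mean CPM was 22.9 and 20.0 while the fit gave a log2 difference of -0.22 ± 0.084 (adjusted p = 0.0192). Over all genes of those pairs of classes the share was 59.9%, and it ranged from 31 to 76.2% over 23 pairs, so such steps were common in the whole transcriptome.

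**Figure D1:**
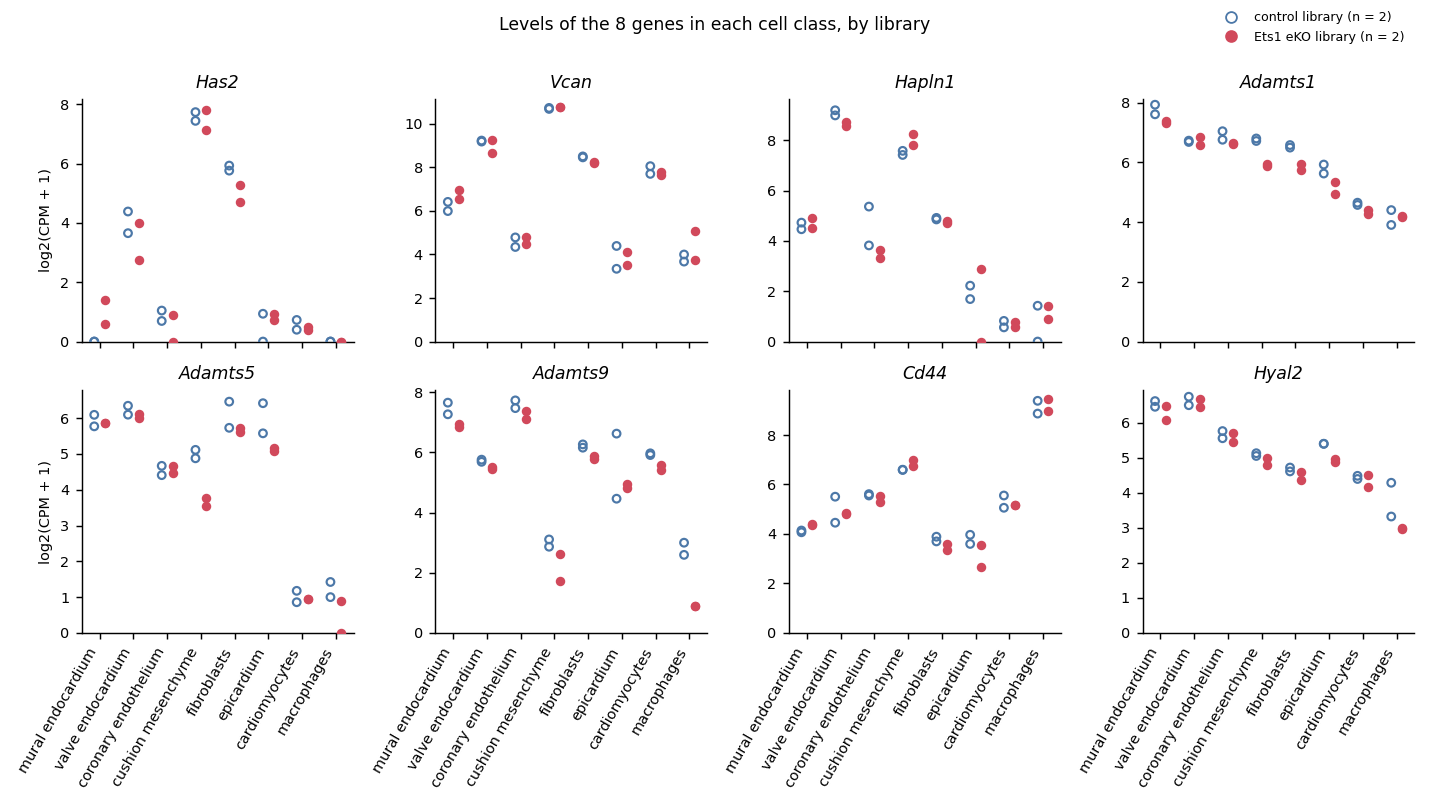
Levels of the 8 genes by cell class on a log axis (log2 of CPM plus 1, so 0 stands for no UMI), with 1 point per library, open for the 2 controls and filled for the 2 *Ets1* eKO libraries. *Has2* stood highest in cushion mesenchyme (138 to 222 CPM), *Hapln1* in valve endocardium (376 to 583 CPM) and *Cd44* in macrophages (466 to 711 CPM), and in cushion mesenchyme the *Adamts1* and *Adamts5* points of the *Ets1* eKO libraries lay below those of the controls.

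**Figure D2:**
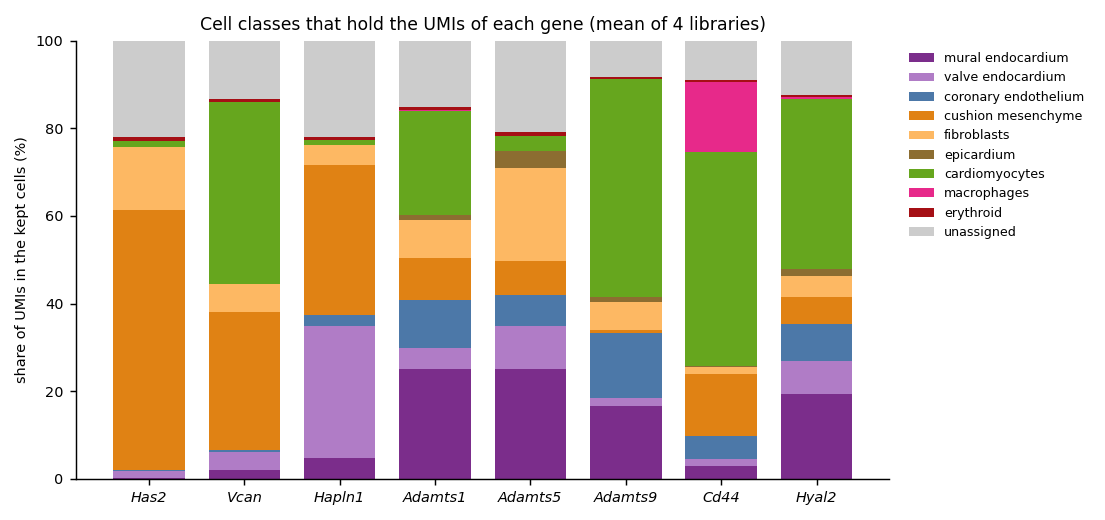
Share of each gene's UMIs, in percent of all kept cells and as the mean of the 4 libraries, by the cell class that held them; each bar adds up to 100%. Cushion mesenchyme held 59.2% of *Has2* UMIs, and cardiomyocytes held 49.9% of *Adamts9* and 48.8% of *Cd44* UMIs.

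Among cardiomyocytes, trabecular and compact cells were gated apart because the jelly lies against the trabeculae. *Vcan* was at 337 and 451 CPM in control and 376 and 311 CPM in *Ets1* eKO trabecular cells, and at 145 and 143 against 135 and 109 CPM in compact cells. The groups of cells did not overlap in any library. Trabecular exceeded compact cells by 1.504 ± 0.056 on the log2 scale for *Vcan* (adjusted p = 1.36e-22) and by 0.42 ± 0.088 for *Hyal2* (adjusted p = 0.000137). They were lower for *Cd44*, with a log2 difference of -0.92 ± 0.070 (adjusted p = 1.51e-13), and for *Adamts9*, with -0.30 ± 0.068 (adjusted p = 0.000332). *Adamts1* missed the threshold (log2 difference -0.11 ± 0.10, adjusted p = 0.411), and *Has2*, *Hapln1* and *Adamts5* were too low to be tested. Of the 5 genes tested 4 passed, where 48.6% of all genes tested did.

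Among the 8 classes, differences between *Ets1* eKO and control passed the threshold only in cushion mesenchyme, for 2 of the 8 genes, both lower in *Ets1* eKO. Over all 12825 genes tested in this class 0.663% passed, and 0.476% passed as lower. *Adamts5* was at 28.4 and 33.6 CPM in control and 10.8 and 12.6 CPM in *Ets1* eKO. *Adamts1* was at 104 and 111 against 57.8 and 60.5 CPM. Both *Ets1* eKO libraries lay below both controls for either protease, as they did for 31.5% of all genes tested in this class. *Adamts5* fell by 1.34 ± 0.19 on the log2 scale (adjusted p = 0.0194) and *Adamts1* by 0.79 ± 0.12 (adjusted p = 0.0233). *Adamts5* stayed past the threshold under every alternative run and *Adamts1* under all but 1, the classing of cells by cluster, where its log2 difference was -0.67 with an adjusted p of 0.0766. DESeq2 also called these 2 genes and no other of the 8. Over the 8 genes the median log2 difference was -0.08, beside 0.01 over all genes tested.

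The remaining genes of this class did not pass. *Hapln1* was at a higher CPM in both *Ets1* eKO libraries than in either control, as were 14.6% of all genes, with a log2 difference of 0.62 ± 0.16 (adjusted p = 0.133), and *Cd44* showed 0.36 ± 0.13 (adjusted p = 0.261). *Hapln1* passed once *Ets1* eKO replicate 1 was left out (0.83, adjusted p = 0.0255) and with no filter on low counts (0.60, adjusted p = 0.00385). *Adamts9* differed by -0.75 ± 0.38 (adjusted p = 0.424), *Vcan* by 0.14 ± 0.14 (adjusted p = 0.715) and *Hyal2* by -0.14 ± 0.15 (adjusted p = 0.730). The synthase *Has2* differed by -0.01 ± 0.21 (adjusted p = 0.987), with the *Ets1* eKO libraries on either side of the controls. Without the *Ets1* eKO replicate 2 its log2 difference was 0.29 and without *Ets1* eKO replicate 1 it was -0.42, so its sign turned on which library was left out.

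The cushion mesenchyme class was checked against other cell types. Its own 11 markers summed to 3162 to 3251 CPM, with no difference in direction between groups. Cells were gated on these markers, so a similar sum is partly set by the gate and is no check of the class. The 8 pan-endothelial markers summed to 36.0 to 66.4 CPM. The 6 pericyte and smooth muscle markers summed to 795 and 869 CPM in control and 387 and 330 CPM in *Ets1* eKO. In this list *Eln*, which encodes elastin, was at 410 and 493 against 196 and 187 CPM and *Fbln5*, which encodes an elastic fibre protein, at 307 and 290 against 144 and 101 CPM. *Rgs5* was at 46.0 and 52.0 against 22.0 and 16.6 CPM and *Notch3* at 28.6 and 33.6 against 23.9 and 22.9 CPM. The contractile smooth muscle marker *Myh11* stayed at 1.33 CPM or below and *Kcnj8* at 2.34 CPM or below in every library. The mural endocardial markers summed to 367 and 447 against 246 and 243 CPM and the 6 valve endocardial markers to 139 and 130 against 115 and 112 CPM. The 6 leukocyte markers summed to 1.98 and 2.84 against 5.85 and 9.63 CPM. The 7 fibroblast markers summed to 1725 and 1487 against 1614 and 1488 CPM in this class, beside 1827 to 2282 CPM in fibroblasts. The 8 cardiomyocyte markers summed to 1438 and 923 against 1292 and 1672 CPM. The part of these cells, or of their genes, in the lower *Adamts1* and *Adamts5* sums was not tested. Of all kept cells, 7.92 and 14.7% were cushion mesenchyme in control and 7.85 and 6.27% in *Ets1* eKO libraries.

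The same genes were counted cell by cell, after thinning each cushion mesenchyme cell to 2000 UMIs, which left out 5 and 16 shallower cells of the control and 15 and 67 of the *Ets1* eKO libraries. *Adamts1* was seen in 16.9 and 16.5% of cells in control and 9.94 and 11.5% in *Ets1* eKO. *Adamts5* was seen in 4.69 and 4.87% against 2.91 and 2.56%. *Hapln1* was seen in 22.0 and 21.7% against 26.1 and 34.4%, and *Has2* in 27.4 and 23.4% against 30.0 and 21.6%. The order of the groups for *Adamts1*, *Adamts5* and *Hapln1* was thus that of the sums, while the groups overlapped for *Has2*. An exact two-sided permutation test over 2 against 2 libraries cannot go below p = 0.3333, which *Adamts1*, *Adamts5* and *Hapln1* reached. The exact 95% binomial intervals, which cover counting error only, were 14.4 to 19.7% and 14.3 to 19.0% for *Adamts1* in control and 7.75 to 12.5% and 9.24 to 14.1% in *Ets1* eKO. Macrophages, at similar median depths (3961 to 6920 UMIs against 3680 to 6412 in cushion mesenchyme), gave 1.37 and 2.47 against 4.09 and 2.45% for *Adamts1*, and none of 643 cells for *Adamts5*, which allows up to 0.467%.

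**Figure D3:**
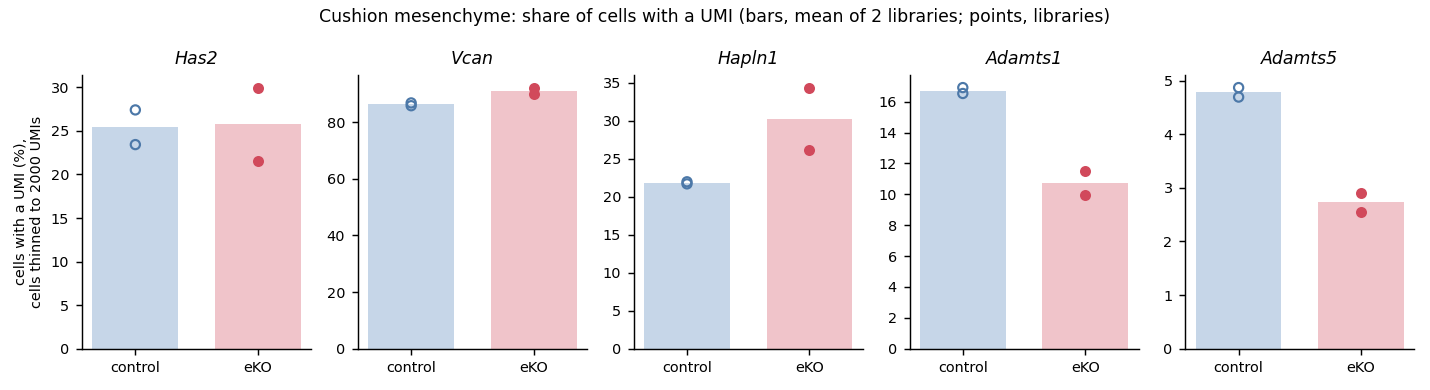
Percent of cushion mesenchyme cells with at least 1 UMI of a gene after thinning to 2000 UMIs per cell; bars give the mean of 2 libraries and points the libraries. For *Adamts1* the *Ets1* eKO libraries (9.94 and 11.5%) lay below the controls (16.9 and 16.5%), for *Hapln1* they lay above, and for *Has2* the groups overlapped.

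In mural endocardium, the inner lining that faces the trabeculae, none of the 7 genes tested passed the threshold in edgeR or in DESeq2, while 2.61% of 12425 genes did. At an unadjusted p under 0.05 there were 3, *Vcan*, *Adamts9* and *Adamts1*, where 20% of all genes were below that value. *Vcan* (levels above) had a log2 difference of 0.60 ± 0.17 (adjusted p = 0.0955). It reached the threshold with the replicate number as a block (0.61, adjusted p = 0.0467), without *Ets1* eKO replicate 2 (0.78, adjusted p = 0.0290) and with no filter on low counts, while without control replicate 2 the value was 0.44 (adjusted p = 0.345). *Adamts9* differed by -0.54 ± 0.15 (adjusted p = 0.0976) and *Adamts1* by -0.38 ± 0.14 (adjusted p = 0.161). For both proteases the 2 *Ets1* eKO libraries lay below the controls, as they did for 31% of all genes tested. *Has2* was too low to be tested, with no UMI in 800 and 558 control cells and 9 and 3 UMIs in 5 of 679 and 3 of 1162 *Ets1* eKO cells. The 5 mural endocardial markers summed to 4922 and 4991 CPM in control and 4317 and 4031 CPM in *Ets1* eKO. The 7 fibroblast markers summed to 24.5 and 21.3 against 148 and 130 CPM, through the genes named with *Dcn* below, and fibroblasts held more *Vcan* than mural endocardium. The 11 markers of cushion mesenchyme, where *Vcan* was highest, summed to 137 and 136 against 141 and 174 CPM, and the pericyte and smooth muscle markers to 39.4 and 39.0 against 63.6 and 55.1 CPM. The 6 valve endocardial markers summed to 171 and 178 against 143 and 123 CPM. The 8 cardiomyocyte markers summed to 929 and 558 against 938 and 1157 CPM. The part of these shifts in the differences above was not tested.

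In valve endocardium none of the 8 genes passed (0.78% of all genes did), with *Hapln1* alone at an unadjusted p under 0.05, where 15.2% of all genes were (log2 difference -0.38 ± 0.16, adjusted p = 0.289). Its *Ets1* eKO libraries lay below both controls, as for 29% of all genes. Pericyte and smooth muscle markers summed to 223 and 606 CPM in control and 132 and 100 CPM in *Ets1* eKO valve endocardium. The 8 cardiomyocyte markers there summed to 842 and 605 against 935 and 1351 CPM. The part of these lists was not tested. In coronary endothelium none of 7 passed (1.15% of all genes did), again with *Hapln1* alone at an unadjusted p under 0.05, where 13.8% of all genes were. It was at 13.1 and 40.1 CPM in control and 11.3 and 8.91 CPM in *Ets1* eKO, a log2 difference of -1.23 ± 0.40 (adjusted p = 0.195). Control replicate 2 carried most of this difference: without it the value was -0.31, and without control replicate 1 it was -1.92. The 6 valve endocardial markers in coronary endothelium were also highest in that library, at 45.9 and 84.3 CPM in control and 50.8 and 36.5 CPM in *Ets1* eKO, and their part was not tested. DESeq2 called none of the genes in either class.

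In fibroblasts none of the 8 genes passed in edgeR, nor did any other gene (0% of 12693), while DESeq2 called 4 genes, none of them among the 8. At an unadjusted p under 0.05 there were 3, where 7.26% of all genes were below that value. *Has2* differed by -0.74 ± 0.19 on the log2 scale (adjusted p = 0.431), *Adamts1*, at 89.4 and 94.9 against 61.2 and 52.4 CPM, by -0.60 ± 0.13 (adjusted p = 0.276) and *Adamts9* by -0.30 ± 0.13 (adjusted p = 0.676). Both *Ets1* eKO libraries lay below both controls for these 3 and also for *Vcan*, *Hapln1*, *Cd44* and *Hyal2*, and for 30% of all genes tested. *Has2* passed once *Ets1* eKO replicate 1 was left out (-1.09, adjusted p = 0.0101) and with no filter on low counts. In the clustering 360 of these cells fell in cushion mesenchyme, where *Has2* was highest, and with cells classed by cluster the difference was -0.78 (adjusted p = 0.537). The pericyte and smooth muscle markers summed to 308 and 892 CPM in control and 181 and 165 CPM in *Ets1* eKO fibroblasts, mostly through *Eln*. The cushion mesenchyme markers summed to 588 and 589 against 548 and 546 CPM in fibroblasts. The 4 atrioventricular canal markers, which summed to 380 to 486 CPM in cushion mesenchyme, were at 72.8 and 78.5 against 47.6 and 49.98 CPM in fibroblasts. The part of these lists was not tested.

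In cardiomyocytes none of the 8 genes passed (0.00624% of all genes did), and *Adamts9* alone was at an unadjusted p under 0.05 (11.9% of all genes were), with 61.7 and 59.3 CPM in control and 47.1 and 41.5 CPM in *Ets1* eKO (log2 difference -0.33 ± 0.11, adjusted p = 0.414). It passed without *Ets1* eKO replicate 1 (-0.39, adjusted p = 0.0209), where 2457 genes passed in all. In compact cardiomyocytes none of 6 passed (0.0147% of all genes did), with *Adamts9* at -0.32 ± 0.12 (adjusted p = 0.518) and again alone at an unadjusted p under 0.05 (9.6% of all genes were). The 2 compact markers summed to 2938 and 2951 CPM in control and 3514 and 3475 CPM in *Ets1* eKO compact cells, and to 1177 and 1142 against 1546 and 1342 CPM in all cardiomyocytes. The mural endocardial markers summed to 376 and 407 against 351 and 306 CPM in compact cells and to 327 and 374 against 306 and 276 CPM in all cardiomyocytes. The part of these shifts was not tested. In trabecular cardiomyocytes none of 5 passed (0.0561% of all genes did), and 2 were at an unadjusted p under 0.05, where 16.7% of all genes were. These were *Adamts1*, at 29.5 and 25.1 against 15.8 and 13.9 CPM (log2 difference -0.77 ± 0.17, adjusted p = 0.169), and *Adamts9*, at 57.5 and 44.3 against 39.1 and 30.5 CPM (-0.45 ± 0.18, adjusted p = 0.267). The *Ets1* eKO libraries lay below the controls in both, as they did for 37.1% of all genes. *Adamts1* in trabecular cells passed in 5 of 11 alternatives, which were the replicate block (-0.76, adjusted p = 0.0404), scaling by total count, keeping low genes, and leaving out either *Ets1* eKO library. All-gene calls rose as well in these settings, from 7 to 112, 252, 255, 2262 without *Ets1* eKO replicate 1 and 342 without replicate 2. In trabecular cells the 3 trabecular markers summed to 10396 and 10744 CPM in control and 11227 and 14629 CPM in *Ets1* eKO, and the mural endocardial markers to 335 and 390 against 294 and 274 CPM. Their part was not tested. In epicardium none of 6 passed in edgeR (0% of all genes did, with 6.49% at an unadjusted p under 0.05, and 0 in DESeq2), with *Adamts1* and *Adamts5* at an unadjusted p under 0.05, and in macrophages none of 3 passed (0.0233% of all genes did) and none was at an unadjusted p under 0.05. Pericyte and smooth muscle markers in epicardium summed to 296 and 718 CPM in control and 249 and 203 CPM in *Ets1* eKO, and the control library with 718 CPM also held the highest *Adamts5* (84.4 CPM) and *Adamts9* (97.7 CPM) levels. Their part was not tested. DESeq2 called none of the 8 genes in these classes.

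Across the classes *Adamts9* had a lower estimate in *Ets1* eKO in 7 of 7 classes tested, from -0.94 to -0.18 on the log2 scale, without passing the threshold in any of them (lowest adjusted p = 0.0976). *Has2* had a lower estimate in 4 of 4 classes tested, but its cushion mesenchyme estimate was -0.01 and turned sign with the library left out. Mural endocardium, where *Has2* was not tested, held 12 UMIs in *Ets1* eKO and none in control. Lower estimates were found for *Adamts1* in 6 of 8 classes and *Vcan* in 4 of 8. They were found for *Adamts5* and *Hyal2* in 5 of 7, *Cd44* in 5 of 8 and *Hapln1* in 3 of 6. Both *Ets1* eKO libraries lay below both controls in CPM for 19.6 to 38.4% of all genes per class, and above for 10.8 to 20.4%. These classes came from the same 4 libraries and share their depth and handling, so the counts are a description.

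**Figure D4:**
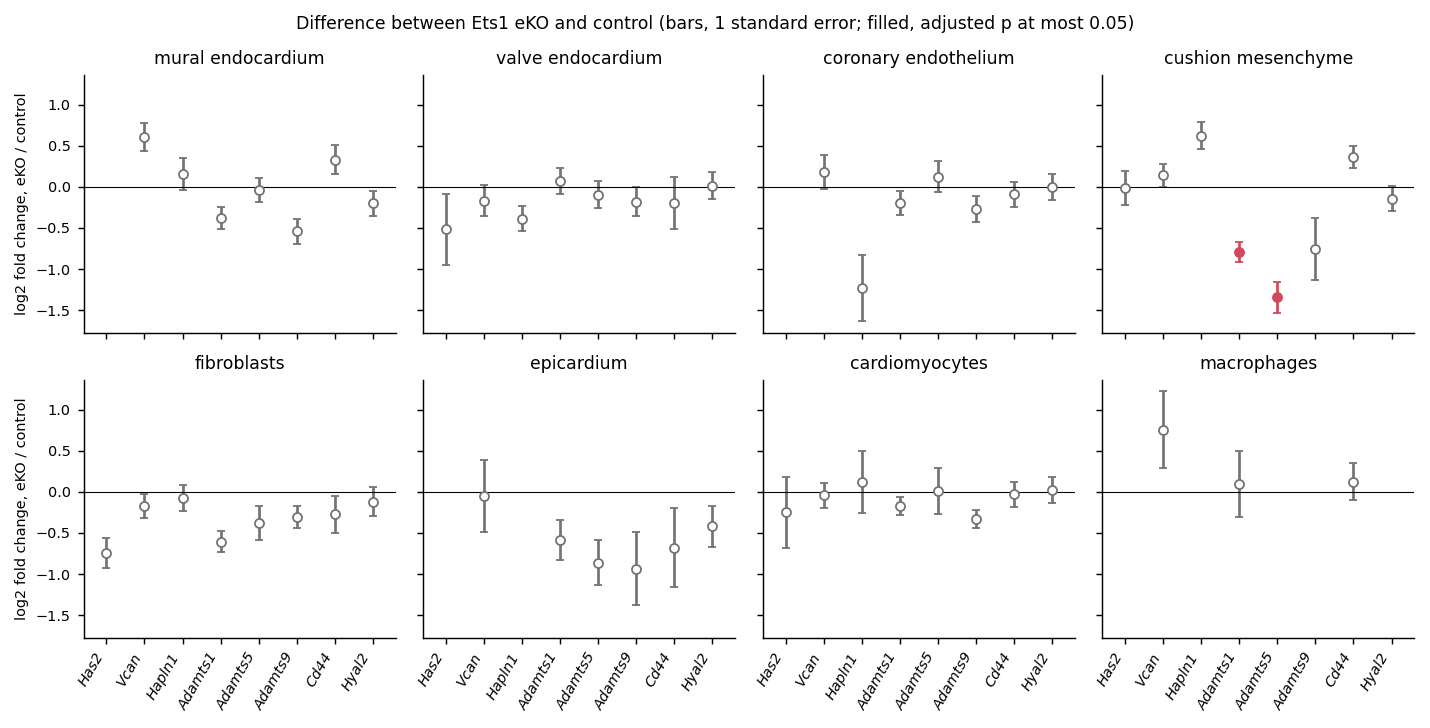
Log2 fold change of *Ets1* eKO against control for the 8 genes in each cell class, with bars of 1 standard error; filled points passed the threshold and a missing point marks a gene too low to be tested. The filled points are *Adamts5* (-1.34) and *Adamts1* (-0.79) in cushion mesenchyme.

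Whether a difference depended on the class was tested with a class by condition term against mural endocardium. In cushion mesenchyme 2 of 8 genes passed, where 2.12% of all genes did. *Adamts5* differed by -1.28 ± 0.22 on the log2 scale between cushion mesenchyme and mural endocardium (adjusted p = 0.00284), where its mural levels were 67.2 and 53.6 CPM against 57.5 and 56.8 CPM. Without *Ets1* eKO replicate 1 this became -1.24 (adjusted p = 0.0524). For *Adamts1* the lower level in cushion mesenchyme was not shown to differ from that in mural endocardium (-0.39 ± 0.14, adjusted p = 0.224). In valve endocardium 2 of 8 passed, where 1.57% of all genes did. Of the 1091 gated valve endocardium cells, 304 clustered with mural endocardium. *Vcan* differed by -0.78 ± 0.14 (adjusted p = 0.00563), and without *Ets1* eKO replicate 1 (-0.89, adjusted p = 0.0815) or replicate 2 (-0.69, adjusted p = 0.291) it no longer passed. In coronary endothelium 1 of 7 passed, where 1.79% of all genes did. This was *Hapln1*, with -1.34 ± 0.31 (adjusted p = 0.0207), and without control replicate 2 it was -0.63 (adjusted p = 0.351). The other gene counted as past the threshold in valve endocardium and in cushion mesenchyme was *Has2*. It was too low to be tested in mural endocardium alone, where it had 12 UMIs in *Ets1* eKO and none in control, and no difference between classes is read from it. In cardiomyocytes none of 8 passed in edgeR, where 1.61% of all genes did, and *Has2*, with its mural control count of 0, and *Vcan* were at an unadjusted p under 0.05, as were 10.6% of all genes.

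The wider pathway was described by a list of 45 further genes of hyaluronan synthesis, proteoglycans, chondroitin sulfate synthesis, proteoglycan cleavage, hyaluronan receptors and hyaluronan cleavage. In mural endocardium 33 were tested and 3 rose, where 1.26% of all genes passed as higher. In valve endocardium 1 of 32 rose (0.353% of all genes), in coronary endothelium 2 of 31 rose (0.66% of all genes), and none fell in these classes. At an unadjusted p under 0.05, 2, 7 and 5 were lower and 7, 2 and 4 higher in mural, valve and coronary endothelium, where 20, 15.2 and 13.8% of all genes were below that p, and DESeq2 called none lower. In the other classes none passed in edgeR or in DESeq2, and at an unadjusted p under 0.05 there were 9 of 35 in cushion mesenchyme, 4 of 35 in fibroblasts, 4 of 40 in cardiomyocytes, 0 of 26 in epicardium and 2 of 17 in macrophages. The shares of all genes below that p were 13.5, 7.26, 11.9, 6.49 and 5.71% in the same order. The median log2 difference of the list was 0.01 in mural, -0.15 in valve and -0.06 in coronary endothelium, beside 0.01, 0.01 and 0.02 over all genes tested there. By the 6 parts of the list, each median rests on 3 to 9 genes and the parts were not tested against each other. In mural, valve and coronary endothelium in this order it was 0.01, 0.11 and 0.11 for hyaluronan synthesis and precursors, 0.0072, -0.03 and 0.10 for proteoglycan core, link and partner proteins, and -0.27, -0.55 and -0.55 for chondroitin sulfate chain synthesis, where no gene passed. It was 1.23, 0.36 and -0.14 for proteoglycan cleavage and its inhibitor, 0.55, 0.13 and 0.10 for hyaluronan receptors and clearance and -0.08, -0.23 and -0.08 for hyaluronan cleavage.

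*Lyve1*, which encodes a hyaluronan receptor of lymphatic endothelium and some macrophages, rose in all 3 endothelial classes. In valve endocardium it was at 2.90 and 3.06 CPM in control and 34.7 and 37.5 CPM in *Ets1* eKO (log2 difference 3.63 ± 0.32, adjusted p = 0.000860). In mural endocardium it was at 13.4 and 9.44 against 60.3 and 41.9 CPM (2.18 ± 0.22, adjusted p = 0.00125). In coronary endothelium it was at 0.886 and 1.24 against 5.03 and 6.74 CPM (2.59 ± 0.46, adjusted p = 0.0167), and this call was lost in 4 of 10 alternatives, DESeq2 among them (adjusted p = 0.0984). Macrophages held more, 198 and 171 against 290 and 181 CPM, and the part of their RNA in the endothelial *Lyve1* levels was not tested. The 6 leukocyte markers, with *C1qa* and *Ptprc* among them, summed to 4.28 to 7.06 CPM in mural and 5.11 to 7.49 CPM in valve endocardium, and to 9.82 to 20.2 CPM in coronary endothelium. *Prox1*, a lymphatic and valve endothelial factor, was at 25.5 and 28.1 against 29.0 and 24.8 CPM in mural endocardium. *Flt4*, which encodes a growth factor receptor of lymphatic endothelium, was at 25.1 and 34.7 against 11.4 and 11.1 CPM there, and *Pdpn*, a lymphatic marker, at 0.368 CPM or below. In valve endocardium *Prox1* was at 281 and 236 against 255 and 187 CPM and *Flt4* at 13.5 and 14.3 against 6.94 and 9.80 CPM. In coronary endothelium *Prox1* was at 5.85 and 8.96 against 7.30 and 6.09 CPM and *Flt4* at 66.5 and 82.5 against 49.8 and 44.8 CPM. *Pdpn* stayed at 1.93 CPM or below in both classes. *Prox1*, *Flt4* and *Pdpn* were chosen after their values were seen.

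*Dcn*, which encodes the small proteoglycan decorin, rose in mural endocardium, from 7.66 and 8.21 CPM to 41.4 and 36.1 CPM (log2 difference 2.33 ± 0.19, adjusted p = 0.000203). *Dcn* is also 1 of the 7 fibroblast markers, which summed to 24.5 and 21.3 CPM in control and 148 and 130 CPM in *Ets1* eKO mural endocardium. Besides *Dcn*, *Lum* was at 9.17 and 8.002 against 69.9 and 53.5 CPM and *Col15a1* at 3.91 and 2.26 against 32.4 and 36.8 CPM. The fibroblast markers *Tcf21*, *Pdgfra*, *Dpt* and *Ogn* stayed at 2.94 CPM or below in every library, and *Col1a1*, abundant in fibroblasts and chosen after its value was seen, was at 4.96 and 3.08 against 5.15 and 3.25 CPM. *Adamts8*, a further protease of the family, rose from 8.72 and 6.36 to 16.2 and 18.5 CPM in mural endocardium (1.23 ± 0.23, adjusted p = 0.0218), a call that was lost without *Ets1* eKO replicate 2 (adjusted p = 0.0588). *Fbln2*, which encodes a versican-binding fibulin, rose in coronary endothelium, from 22.3 and 23.5 to 47.6 and 43.5 CPM (1.08 ± 0.16, adjusted p = 0.00468), and a stricter gate gave an adjusted p of 0.0627. The 6 coronary markers in that class summed to 8011 and 6777 against 8612 and 9784 CPM. The 2 compact cardiomyocyte markers there summed to 35.3 and 31.5 against 91.4 and 70.9 CPM. The part of these shifts in the *Fbln2* levels was not tested.

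**Figure D5:**
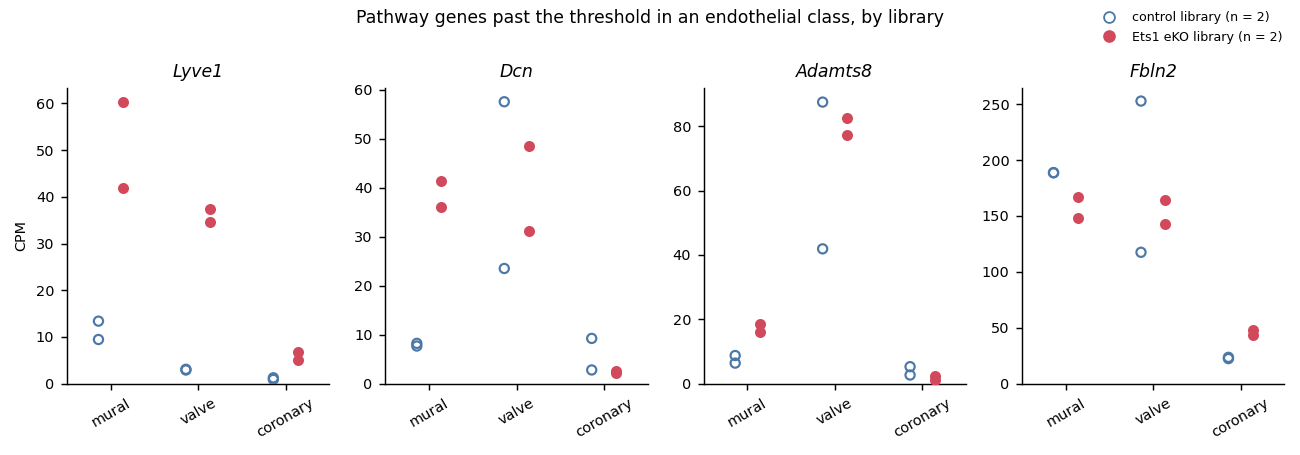
Levels in CPM, on a linear axis, of the 4 pathway genes that passed the threshold in an endothelial class, with 1 point per library, open for control and filled for *Ets1* eKO. *Lyve1* was higher in the *Ets1* eKO libraries in all 3 classes, while *Dcn* and *Adamts8* passed in mural endocardium and *Fbln2* in coronary endothelium.

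Genes with the most similar pattern were sought among 11968 genes over 32 sums of class and library, by Pearson's r of log2(CPM + 1). These sums share libraries, classes and depth, so r is a description. The nearest genes were *Tubb3* (r = 0.979), *Tmem26* (r = 0.946) and *Grin3a* (r = 0.944) for *Has2*, and *Inhba* (r = 0.939), *Wnt16* (r = 0.898) and *Pdlim3* (r = 0.895) for *Vcan*. For *Hapln1* they were 2700046A07Rik (r = 0.931), *Olfml2a* (r = 0.907) and *Sall3* (r = 0.907). For the proteases they were *Fam13c*, *Rab10* and *Sntb2* for *Adamts1* (r = 0.940 to 0.967), *Cdc42ep5*, *Fbn1* and *Pear1* for *Adamts5* (r = 0.946 to 0.959) and *Stox2*, *Gramd4* and *Cobll1* for *Adamts9* (r = 0.879 to 0.905). For *Cd44* they were *Rgs2*, 4933406I18Rik and *Zfand5* (r = 0.891 to 0.904), and for *Hyal2* *Myo6*, *Plpp3* and *Rab4a* (r = 0.933 to 0.965).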

How the data were processed

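Single cells of 4 libraries were counted, 2 control and 2 *Ets1* eKO. The authors deposited UMI counts per gene and barcode, made with Cell Ranger 7.1.0 on mm10 from 10x 3′ libraries. The submitters' processing notes also name Seurat 4.3.0. The counts are whole and not normalized, and whether background RNA or doublets were removed before deposit is not given in the sources used here. The sample titles name no batch, and the main fit of *Ets1* eKO against control held no batch term. The study used Harmony for batch correction, which was not repeated here.

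Kept cells had 200 to 7000 genes, and mitochondrial, ribosomal and hemoglobin genes held no more than 20%, 35% and 2% of their counts. Doublets were removed by score at 0.8% per 1000 cells. The study's CellBender correction and exon read filter were not repeated. Each cell went to the marker list with the highest scaled score, if it led the next by a set margin. *Lum* and *Dpt* were left out of the step that parts fibroblasts from cushion mesenchyme, after their levels were seen to be high in both. The UMIs of a class were added up within each library of at least 20 such cells. These sums entered the quasi-likelihood test of edgeR 4.0.16 in R 4.3.3 after filterByExpr and TMM scaling, with Benjamini-Hochberg adjustment at 0.05. Standard errors are the absolute log2 fold change divided by the square root of F. The differences between classes used library as a block. The test was tried on simulated counts first. Clustering used leidenalg 0.10.2 at resolution 1.5 and scikit-learn 1.9.0. Tables and figures were made in Python 3.11.15 (matplotlib 3.10.9, scipy 1.17.1, pandas 2.3.3, numpy 2.4.6). Gene positions are those of GENCODE vM21 on GRCm38.

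The shallowest sum of the 8 classes held 594941 UMIs (macrophages of control replicate 2), which limits the precision for low genes there. The alternatives run were leaving out each library, the replicate block, DESeq2 1.42.0, scaling by total count, keeping low genes, other cell filters and gates, and shares at 1000 or all UMIs. The 8 genes and all lists were chosen with earlier results of these data known. The genes named are the 8, *Ets1*, pathway genes past the threshold, the 3 nearest genes of each and the markers.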

Additional observations from a re-analysis of the deposited data

Results flagged for a closer look

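By edgeR's quasi-likelihood test of the class by condition term against mural endocardium, which 1.57 to 2.12% of all genes passed, the difference between *Ets1* eKO and control depended on the cell class for *Adamts5*, *Vcan* and *Hapln1*, and each of these calls was lost when 1 library was left out. *Adamts5* differed between cushion mesenchyme and mural endocardium (adjusted p = 0.00284, and 0.0524 without *Ets1* eKO replicate 1). *Vcan* had an estimate of 0.60 in mural and of -0.17 in valve endocardium on the log2 scale (adjusted p = 0.00563, and 0.0815 or 0.291 without *Ets1* eKO replicate 1 or 2). *Hapln1* had estimates of -1.23 in coronary endothelium and 0.16 in mural endocardium (adjusted p = 0.0207, and 0.351 without control replicate 2). *Has2* also had a low p in valve endocardium (adjusted p = 0.0382) and cushion mesenchyme (adjusted p = 0.0223). It was too low to be tested in mural endocardium, with 12 UMIs in 5 of 679 and 3 of 1162 *Ets1* eKO cells and none in control, which allows up to 0.260 CPM there, so these values show no dependence on the class. No explanation of these differences was tested.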

How the results depend on the processing

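Over 569 alternatives for 63 results, 499 were scored as unchanged. For counts of genes this meant an equal or similar count, and for shares of cells the same direction. For log2 differences it meant the same direction and the same side of the threshold. The lower *Adamts5* in cushion mesenchyme kept both in every alternative (log2 -1.44 to -1.17, highest adjusted p = 0.0464), and *Adamts1* was lost when cells were classed by cluster (log2 -0.93 to -0.67 over all), which left 1 gene of the 8 past the threshold. These counts over single classes refer to the 8 genes. With no filter on low counts 3 genes passed in mural endocardium, 1 in coronary endothelium, 2 in fibroblasts and 1 in trabecular cardiomyocytes. With the replicate block 1 passed in mural endocardium, 1 in coronary endothelium and 1 in trabecular cardiomyocytes, with 2 in cushion mesenchyme as in the fit without it. The numbers pair the libraries only in name, since same-numbered libraries correlated at -0.12 to 0.03 over the classes. Total count scaling gave 1 in trabecular cardiomyocytes, and keeping all doublets gave 1 in macrophages (*Adamts9*). Leaving out a library gave 0 to 1 genes in mural endocardium, 0 to 1 in coronary endothelium, 0 to 1 in cardiomyocytes, 0 to 1 in fibroblasts, 2 to 3 in cushion mesenchyme, 0 to 2 in epicardium (*Adamts5* and *Adamts9* without control replicate 1, which leaves the control library with the most pericyte and smooth muscle markers) and 0 to 2 in trabecular cardiomyocytes. For the tests of class by condition, *Has2* included, it gave 0 to 4 in valve endocardium (0.172 to 3.89% of all genes), 0 to 3 in coronary endothelium (1.06 to 2.91%), 0 to 1 in cardiomyocytes (0.714 to 2.79%) and 0 to 4 in cushion mesenchyme (0.984 to 3.66%). *Has2* in cushion mesenchyme ran from -0.42 to 0.29 when a library was left out (0.16 without control replicate 1) and was 0.033 with *Lum* and *Dpt* kept as fibroblast markers, a choice made after seeing the data. Its share of cells differed by -7.12 percentage points with all UMIs, where depth differs between libraries. By cluster the level of *Adamts5* in valve endocardium against fibroblasts was -0.12 and that of *Hyal2* in valve against mural endocardium -0.14. The cause of these shifts was not tested.

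Counts over all genes moved more. They were 324 in mural endocardium (215 to 1110), 84 in valve endocardium (54 to 484), 131 in coronary endothelium (66 to 1070), 85 in cushion mesenchyme (32 to 668), 1 in cardiomyocytes (0 to 2457), 0 in fibroblasts (0 to 165), 0 in epicardium (0 to 89), 2 in macrophages (1 to 79), 2 in compact (0 to 858) and 7 in trabecular cardiomyocytes (4 to 2262). Total count scaling moved the median gene to -0.11 in cardiomyocytes and -0.11 in trabecular cells, and the share of higher genes among those called from 48.1 to 36.4% in mural, 45.2 to 33.0% in valve and 57.3 to 38.4% in coronary endothelium.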

Other observations

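Cardiomyocytes gated on atrioventricular canal markers numbered 1292. They were part of the cardiomyocyte class in the comparisons of that class and were not compared as a group of their own. They made up 2.96 and 5.69% of kept cells in control and 3.08 and 2.75% in *Ets1* eKO libraries. They held 9 of the 20 and 14 of the 24 *Has2* UMIs of cardiomyocytes in control and 10 of 19 and 9 of 15 in *Ets1* eKO libraries. *Has2* was at 2.84 and 3.12 CPM in control and 4.14 and 4.38 CPM in *Ets1* eKO cells of this kind, where compact and trabecular cardiomyocytes stayed at 0.33 CPM or below. The 11 cushion mesenchyme markers summed to 46.4 to 77.9 CPM in these cells, 20.5 to 32.5 CPM in compact and 9.40 to 10.7 CPM in trabecular cells, beside 3162 to 3251 CPM in cushion mesenchyme, where *Has2* was at 138 to 222 CPM, and their part in the *Has2* level was not tested. *Vcan* was at 226 and 355 against 340 and 340 CPM, *Adamts1* at 47.3 and 43.4 against 53.8 and 32.1 CPM and *Adamts9* at 58.0 and 57.4 against 43.9 and 39.4 CPM. These are single sums with no test.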
